A study of Mus musculus with 6 samples.

Results

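Myc and 40 nucleolar and pre-rRNA processing factors were followed in RNA sequencing libraries of mouse macrophages from regenerating muscle. The members were chosen by name from the factors that act in the nucleolus, with earlier results of these data known. All 41 were found among the 53774 named genes of the deposited expression table. The macrophages were sorted as CD45-positive, F4/80-positive cells from skeletal muscle injured with BaCl2, which destroys muscle fibres, at 3 days post injury. Every mouse carried Cx3cr1-CreER, a tamoxifen-inducible recombinase expressed from the Cx3cr1 promoter, together with Manf fl/fl alleles. Oil was given to the controls (3 libraries) and tamoxifen, which triggers deletion of Manf, to the other mice (3 libraries); Manf encodes an endoplasmic reticulum stress protein. No group without the recombinase received tamoxifen, so the drug and the deletion cannot be told apart, and recombination is limited to cells in which the Cx3cr1 promoter is active. The age and number of the mice, and which library came from which mouse, were not given in the sources used here. The p-values therefore measure the spread between these libraries, which may be technical.

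Ribosomes are assembled in the nucleolus. RNA polymerase I transcribes a long pre-rRNA, small nucleolar ribonucleoproteins (snoRNPs) guide its chemical modification, and large sets of processing factors cut and fold it into the small and the large subunit. Myc, a transcription factor that binds the E-box CACGTG with its partner Max, is known to activate many genes of this pathway in growing cells.

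Values are FPKM, fragments per kilobase of exon, scaled to the reads of the library. The libraries held between 18120333 and 25544666 reads, a depth recovered from the values themselves. For the 37 members whose values gave whole reads, between 218 and 17804 reads lay behind each value. Manf, the gene to be deleted, was at 29.5, 33.0 and 31.4 FPKM in oil 1, 2 and 3, and in those labelled tamoxifen 1, 2 and 3 at 18.1, 42.5 and 38.0 FPKM. Only tamoxifen 1 lay below oil, and every direction below is therefore that of the labels. Of the sort markers, Adgre1 (F4/80) stood at 353 ± 27.8 and 329 ± 35.1 FPKM and Ptprc (CD45) at 50.7 ± 3.60 and 39.0 ± 6.88 FPKM in oil and tamoxifen (SD, n = 3). Cx3cr1, whose promoter drives the recombinase, was measured at 51.7, 42.7 and 51.0 FPKM in oil 1, 2 and 3 and only 31.3, 9.82 and 24.6 FPKM in tamoxifen 1, 2 and 3. Every tamoxifen library lay below every oil library, the lowest being tamoxifen 2, where the members were high (log2 fold change -1.25, adjusted p by limma-trend = 0.154), and its part in the members' values was not tested. On the first principal component of all genes tested (67.7% of the variance) tamoxifen 1 stood at -6.80, between the oil libraries at -22.5 to -13.5 and tamoxifen 2 and 3 at 34.3 and 22.1.

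All 41 members had a higher mean with tamoxifen than with oil. The log2 fold change, on the scale log2(FPKM + 1), ran from 0.16 for Polr1c to 0.72 for Rrp12, with a median of 0.41. Among the 10920 genes tested, those whose mean reached 1 FPKM, 53.7% had a fold change above 0 and the median was 0.02. Only 6.40% of these genes reached the median of the members, and 1.55% exceeded Rrp12. In bulk RNA a change in the cells' makeup and a change of RNA per cell cannot be told apart.

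None of these differences passed the test across all genes. limma-trend with Benjamini-Hochberg adjustment over the 10920 genes called 0 members higher and 0 lower at an adjusted p under 0.05, where it called 0% of all genes in either direction; the smallest adjusted p of a member was 0.148, for Noc2l. At an unadjusted p under 0.05 there were 32 members higher and 0 lower, where 13.2% of all genes were higher and 11.7% lower. Limma-voom on recovered reads also called 0 members, with 30 of 37 at an unadjusted p under 0.05.

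The libraries labelled tamoxifen did not contribute equally. In all 41 members tamoxifen 2 and tamoxifen 3 both lay above the other 4 libraries, an order seen in 30.2% of all genes tested. Tamoxifen 1 was the lowest of its group in all 41, above every oil library in 25 members and inside the oil range in the other 16, while 28.4% of all genes had tamoxifen 1 above every oil library. All 3 tamoxifen libraries thus lay above all 3 oil libraries in 25 members, where the share over all genes was 16.2%. The median member exceeded its oil mean by 0.14, 0.57 and 0.57 log2 units in tamoxifen 1, 2 and 3. The oil libraries were ordered too: oil 1 was the lowest of all 6 libraries in 36 members, against 24.8% of all genes, and its median member lay -0.13 log2 units from the oil mean. The exceptions were Myc, Polr1b, Utp15, Tsr1 and Ltv1.

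**Figure D1:**
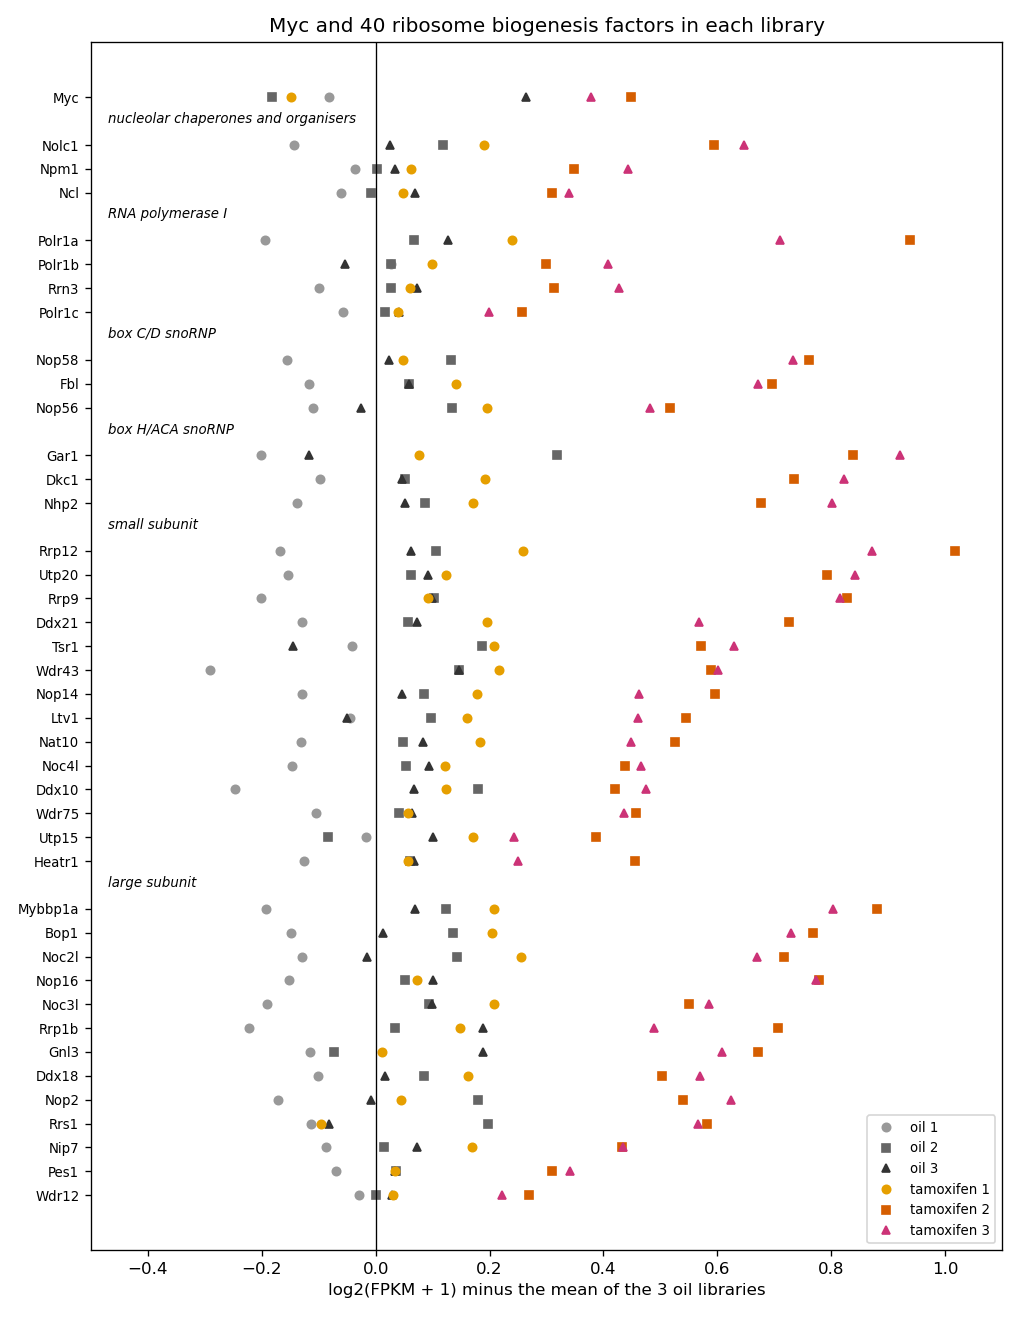
Difference of log2(FPKM + 1) from the mean of the 3 oil libraries (x axis, log2 units) for Myc and the 40 factors, grouped by role, with 1 point per library. Tamoxifen 2 and tamoxifen 3 lie to the right of all other libraries in all 41 members, and tamoxifen 1 lies near the oil libraries.

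Without tamoxifen 1 the same fit called 39 of the 41 members higher, where it called 17.4% of all genes higher, and the median log2 fold change was 0.57. Manf, which was below oil only in tamoxifen 1, had a log2 fold change of 0.35 in this fit. The 2 members that did not pass were Myc (adjusted p = 0.0646, limma-trend) and Wdr12 (adjusted p = 0.0931, limma-trend). Leaving out any other library gave 0 calls, with median fold changes between 0.33 and 0.46 log2 units.

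**Figure D2:**
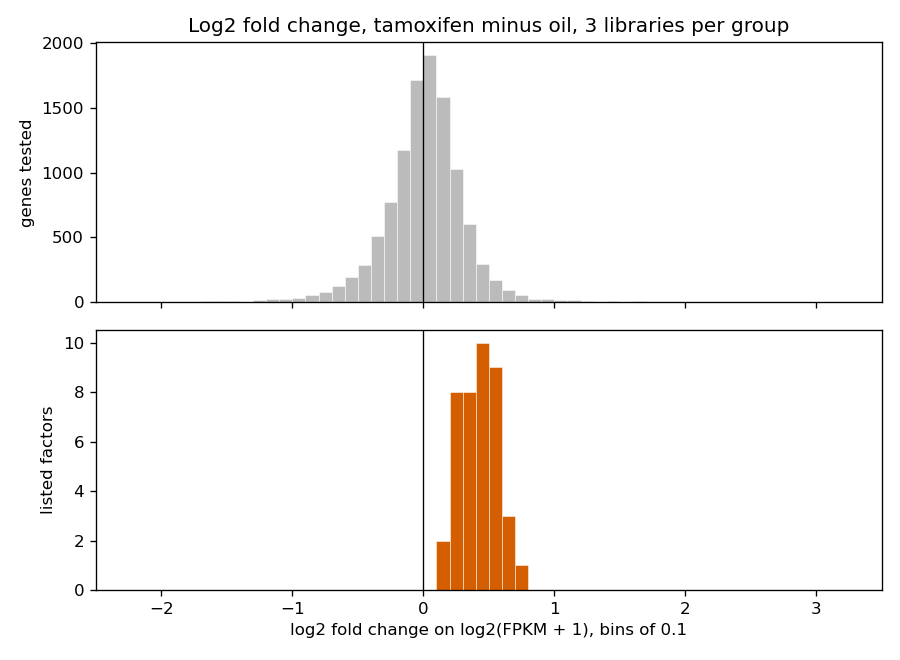
Number of genes (y axes) by log2 fold change of tamoxifen against oil, in bins of 0.1 log2 units, for the 10920 genes tested (top) and the 41 members (bottom). All members lie to the right of 0, between 0.16 and 0.72, while all genes spread on both sides with a median of 0.02.

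Myc itself (chromosome 15, 61985391 to 61990374, plus strand, GRCm38) was among the members that differed least. It was at 6.84, 6.32 and 8.96 FPKM in oil 1, 2 and 3 and at 6.48, 10.3 and 9.78 FPKM in tamoxifen 1, 2 and 3. Tamoxifen 2 and 3 were the highest libraries, but tamoxifen 1 lay inside the oil range, so the groups overlapped. Its fold change of 0.23 log2 units had an SE of 0.19 (n = 3 per group) and did not pass (limma-trend adjusted p = 0.460). An exact permutation test, two-sided, gave p = 0.3, and with 3 against 3 it cannot go below 0.1. Myc and Rrs1 were the members in which tamoxifen 1 lay below the oil mean, by -0.15 and -0.10 log2 units.

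Among the proteins that work with Myc or against it the differences went both ways. Of the 15 listed genes of this network 10 were tested, with 8 fold changes above 0, a median of 0.09 and 0 calls. The groups did not overlap in 4 of them, 2 upward and 2 downward (20% each), near the 16.2% and 13.8% of all genes. Mlx, a partner of Myc-related factors, was higher at 13.5 ± 0.637 and 17.6 ± 1.72 FPKM in oil and tamoxifen (SD, n = 3). Mxd4, a Max-binding repressor that opposes Myc, was lower at 9.63 ± 1.04 and 5.28 ± 1.96 FPKM. Max, named after its values were seen, had a log2 fold change of 0.02. Mycn, Mycl, Mxd3 and Mlxipl were under the minimum of 1 FPKM. So was Myb, which was on the list although it does not belong to the Myc network.

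The E-box is a sequence that Myc is known to bind, so the stretches of the members' promoters that carry it are shown. RefSeq promoter windows (GRCm38.p6, 250 bases before to 50 after the transcription start) were matched for 35 members, and Myc, Npm1, Fbl, Bop1, Rrs1 and Rrp12 had none. CACGTG, which reads the same on both strands, stood in the windows of 8 of these 35 members (22.9%), and in 12.6% of the 7825 tested genes with a window. The capitals mark CACGTG, and each sequence is written 5′ to 3′ on the strand of the gene. Before the start the motif was found in Rrn3 and Nop2, 215 and 48 bases upstream in Rrn3 and 60 bases upstream in Nop2.
Rrn3, chr16:13780449-13780549, plus strand: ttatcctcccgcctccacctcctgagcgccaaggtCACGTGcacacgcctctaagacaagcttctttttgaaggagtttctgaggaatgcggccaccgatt
Rrn3, chr16:13780591-13780698, plus strand: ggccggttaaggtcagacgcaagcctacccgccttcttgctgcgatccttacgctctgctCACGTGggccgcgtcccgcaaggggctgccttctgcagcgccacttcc
Nop2, chr6:125131763-125131882, plus strand: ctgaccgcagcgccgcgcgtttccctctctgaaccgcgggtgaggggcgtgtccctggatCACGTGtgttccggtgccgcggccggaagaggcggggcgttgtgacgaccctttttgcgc

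In the other 6 members the motif lay within the first 50 transcribed bases, and only the site with its flanks is shown.
Pes1, chr11:3963967-3963992, plus strand: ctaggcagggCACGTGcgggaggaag
Wdr43, chr17:71616222-71616247, plus strand: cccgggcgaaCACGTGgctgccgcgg
Tsr1, chr11:74898094-74898119, plus strand: acttggtgcaCACGTGgactgcagaa
Ltv1, chr10:13193094-13193119, minus strand: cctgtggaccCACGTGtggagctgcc
Utp20, chr10:88826765-88826787, minus strand: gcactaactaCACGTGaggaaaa
Mybbp1a, chr11:72441357-72441376, plus strand: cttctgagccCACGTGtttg
The median log2 fold change was 0.44 in the 8 members with the motif and 0.41 in the 27 members with a window and no match, and both groups covered most of the range of the members. Other motifs were searched on both strands. CACGCG stood in 31.4% of the members' windows and 20.4% of those of tested genes, CCGGAA, the core bound by ETS factors, in 45.7% and 34.1%, GGGCGG, the core bound by Sp1, in 80.0% and 69.7%, and TATAAA in 5.71% and 8.42%. None of these motifs contains another, though neighbouring sites may share bases. The windows had a median GC content of 59.7% in the members and 61.0% in tested genes. A match describes the letters of the window and shows no binding. Sequence outside the windows was not searched, so members without a match may carry the motif elsewhere.

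Nucleolin, nucleophosmin and Nolc1, abundant nucleolar proteins that chaperone or organise pre-rRNA and snoRNPs, had fold changes of 0.23, 0.28 and 0.48 log2 units. Npm1 (chromosome 11, 33152287 to 33163206, minus strand), the most abundant member and a gene with processed pseudogenes that leave its level uncertain, was at 140.0, 144 and 147 FPKM in oil 1, 2 and 3 and at 149.9, 183 and 196 FPKM in tamoxifen 1, 2 and 3. Tamoxifen 1 lay just above the highest oil library and tamoxifen 2 and 3 well above it (SE 0.11, 3 libraries per group, adjusted p by limma-trend = 0.182). Nolc1, which binds snoRNPs, was at 11.3, 13.7 and 12.8 FPKM in oil and 14.5, 19.5 and 20.2 FPKM with tamoxifen. The groups did not overlap (SE 0.14, limma-trend adjusted p = 0.152). Ncl was at 56.2, 58.3 and 61.5 FPKM in oil and 60.6, 72.9 and 74.4 FPKM with tamoxifen, where tamoxifen 1 fell inside the oil range.

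Within RNA polymerase I the listed members differed in size. Polr1a (chromosome 6, 71909053 to 71984935, plus strand), the catalytic subunit, was at 1.66, 2.19 and 2.33 FPKM in oil 1, 2 and 3 and at 2.60, 4.84 and 3.98 FPKM in tamoxifen 1, 2 and 3. All tamoxifen libraries lay above all oil libraries, and its 1.85-fold ratio of means was the highest of the 41 members (log2 fold change 0.63, SE 0.19, 3 libraries per group, adjusted p by limma-trend = 0.154). Polr1b, which completes the active centre, was at 2.02, 2.03 and 1.86 FPKM in oil and 2.18, 2.65 and 2.94 FPKM with tamoxifen, also without overlap (log2 fold change 0.27). Rrn3, the initiation factor that brings the polymerase to the rRNA gene, was at 5.94, 6.58 and 6.82 FPKM in oil and 6.75, 8.24 and 8.996 FPKM with tamoxifen. Its groups overlapped through tamoxifen 1 (log2 fold change 0.27). Polr1c, a subunit shared with RNA polymerase III, was at 12.6, 13.3 and 13.6 FPKM in oil and 13.5, 15.9 and 15.2 FPKM with tamoxifen, an overlap and the smallest fold change of all members (0.16).

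The core proteins of the box C/D snoRNPs, which guide 2'-O-methylation of rRNA, were higher by 0.40 to 0.51 log2 units. Nop56 (chromosome 2, 130274430 to 130279313, plus strand), a scaffold of the particle, stood at 20.9, 24.9 and 22.2 FPKM in oil 1, 2 and 3 and at 26.02, 32.8 and 31.95 FPKM in tamoxifen 1, 2 and 3. All tamoxifen values lay above oil (log2 fold change 0.40, SE 0.11, 3 libraries per group, adjusted p by limma-trend = 0.152). Fbl (fibrillarin), the methyltransferase, was at 14.5, 16.5 and 16.5 FPKM in oil and 17.5, 26.2 and 25.8 FPKM with tamoxifen. It too did not overlap (log2 fold change 0.50, SE 0.16, limma-trend adjusted p = 0.156). Nop58, the other scaffold, was at 4.05, 5.17 and 4.72 FPKM in oil and 4.82, 8.53 and 8.35 FPKM with tamoxifen, with tamoxifen 1 inside the oil range (log2 fold change 0.51).

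The box H/ACA snoRNPs, which guide pseudouridylation, had the highest median of the role groups, at 0.58 log2 units. Dkc1 (dyskerin; chromosome X, 75095854 to 75109777, plus strand), the pseudouridine synthase, was at 3.78, 4.30 and 4.28 FPKM in oil 1, 2 and 3 and at 4.85, 7.51 and 8.05 FPKM in tamoxifen 1, 2 and 3. The groups were apart, by a narrow margin for tamoxifen 1 (log2 fold change 0.58, SE 0.17, 3 libraries per group, adjusted p by limma-trend = 0.152). Nhp2, an RNA-binding core protein, stood at 32.9, 38.6 and 37.6 FPKM in oil and 40.96, 58.6 and 63.9 FPKM with tamoxifen. Its groups did not overlap either (log2 fold change 0.55, SE 0.17, limma-trend adjusted p = 0.154). Gar1, another core protein, stood at 8.14, 12.1 and 8.70 FPKM in oil and 10.1, 17.8 and 18.9 FPKM with tamoxifen, so that oil 2 exceeded tamoxifen 1 (log2 fold change 0.61).

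**Figure D3:**
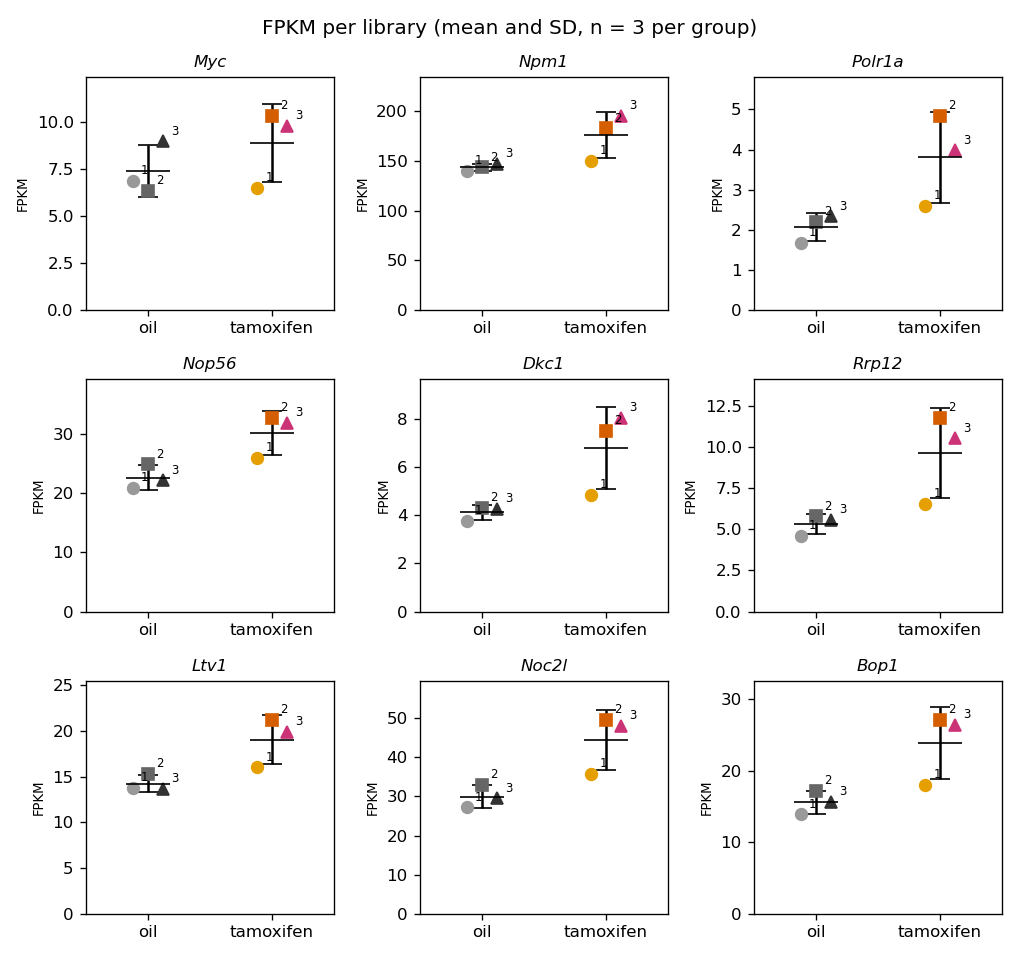
FPKM (y axes, starting at 0) of Myc and 8 factors from the role groups in the 3 oil and 3 tamoxifen libraries, numbered by replicate, with the mean and SD of each group. In each panel tamoxifen 2 and 3 are the highest points, and in Myc tamoxifen 1 (6.48 FPKM) lies inside the oil range of 6.32 to 8.96 FPKM.

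Of the 14 small-subunit factors all had a fold change above 0 (53.7% of all genes) and in 10 every tamoxifen library lay above every oil library (16.2% of all genes). Rrp12 (chromosome 19, 41862851 to 41896173, minus strand), a factor for maturation and export of pre-ribosomes, was at 4.60, 5.78 and 5.57 FPKM in oil 1, 2 and 3 and at 6.54, 11.8 and 10.5 FPKM in tamoxifen 1, 2 and 3. Every tamoxifen library lay above oil, and the fold change was the largest of the members on the log2 scale (0.72, SE 0.20, 3 libraries per group, adjusted p by limma-trend = 0.152). Ddx21, an RNA helicase of the nucleolus and the most abundant of these factors, was at 31.6, 36.1 and 36.5 FPKM in oil and 39.8, 57.9 and 51.8 FPKM with tamoxifen. Its groups were apart as well (log2 fold change 0.50, SE 0.14, limma-trend adjusted p = 0.152). Ltv1, which is released late from the maturing small subunit, was at 13.7, 15.3 and 13.7 FPKM in oil and 16.0, 21.2 and 19.9 FPKM with tamoxifen. Here tamoxifen 1 was closer to oil 2 than to tamoxifen 3 (log2 fold change 0.39, SE 0.11, limma-trend adjusted p = 0.152).

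The remaining small-subunit factors ranged in fold change from 0.25 to 0.59 log2 units. Heatr1, Wdr43, Wdr75 and Utp15, which join the nascent pre-rRNA early, had 0.25, 0.47, 0.32 and 0.27. Among later factors of the processome, Utp20, Rrp9, Nop14 and Noc4l had 0.59, 0.58, 0.41 and 0.34. The cytidine acetyltransferase Nat10, the helicase Ddx10 and the late factor Tsr1 had 0.39, 0.34 and 0.47. In Heatr1, Wdr75, Rrp9 and Ddx10 tamoxifen 1 lay inside the oil range.

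All 13 large-subunit factors had a fold change above 0 (53.7% of all genes), and 7 had every tamoxifen library above every oil library (16.2% of all genes). Noc2l (chromosome 4, 156236010 to 156247616, plus strand), a nucleolar complex protein of large-subunit precursors, was at 27.2, 33.0 and 29.5 FPKM in oil 1, 2 and 3 and at 35.8, 49.6 and 48.0 FPKM in tamoxifen 1, 2 and 3. The groups were apart and the p was the smallest of the members (log2 fold change 0.55, SE 0.14, 3 libraries per group, adjusted p by limma-trend = 0.148). Nip7 was at 6.82, 7.39 and 7.73 FPKM in oil and 8.34, 10.2 and 10.2 FPKM with tamoxifen, with no overlap and little spread (log2 fold change 0.35, SE 0.10, limma-trend adjusted p = 0.152). Bop1 was at 13.9, 17.1 and 15.7 FPKM in oil and 18.02, 27.1 and 26.4 FPKM with tamoxifen. Its groups did not overlap, although tamoxifen 1 lay near oil 2 (log2 fold change 0.57, SE 0.16, limma-trend adjusted p = 0.152).

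Bop1 forms the PeBoW complex with Pes1 and Wdr12, and the subunits differed in size of change. Pes1 and Wdr12 had fold changes of 0.23 and 0.17 log2 units, with adjusted p of 0.208 and 0.310 by limma-trend. Wdr12, at 1.34 ± 0.0462 FPKM in oil, is so low that the added 1 FPKM shrinks its fold change, and its ratio of means was 1.23 against 1.53 for Bop1. The difference between the subunits was not tested. Of the others, Mybbp1a, Nop16, Noc3l, Rrp1b, Gnl3 (nucleostemin, a GTPase), the helicase Ddx18, the rRNA methyltransferase Nop2 and Rrs1 had 0.63, 0.54, 0.45, 0.45, 0.43, 0.41, 0.40 and 0.35 log2 units. The groups overlapped in Pes1, Nop16, Rrp1b, Gnl3, Nop2 and Rrs1.

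Some features that the choice did not use were counted in the members. A snoRNA gene lay inside 7 of the 41, namely Dkc1, Gnl3, Ncl, Nop56, Nop58, Tsr1 and Wdr43, on the same strand (17.1%, against 1.82% of 10707 tested genes with a unique annotation). The members were spread over 18 chromosomes, with at most 6 on any. In 16 members an exon overlapped a gene on the opposite strand and in 0 a gene on the same strand. This was not counted over all genes, so it cannot be read as a trait of the members. Whether the authors' counting used strand was not given in the sources used here. In these 16, reads of the partner gene therefore cannot be told apart. They include Polr1a, Nop56, Dkc1, Nhp2, Noc2l, Bop1 and Mybbp1a.

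Other factors of the pathway were taken from lists of its steps, also chosen with earlier results of these data known. Over all genes 53.7% had a fold change above 0 and 16.2% had all tamoxifen above all oil libraries. Of 44 tested further small-subunit factors 39 had a fold change above 0 and 20 had all tamoxifen above all oil libraries, with a median of 0.24 log2 units. Nob1, the nuclease of the last small-subunit cleavage, was at 6.27 ± 0.186 and 9.14 ± 1.49 FPKM in oil and tamoxifen, and Utp18 at 9.66 ± 0.782 and 13.3 ± 1.71 FPKM (SD, n = 3). Of 51 tested further large-subunit factors 46 had a fold change above 0 and 21 did not overlap upward, again with a median of 0.24. Ebna1bp2 was at 9.47 ± 0.341 and 15.0 ± 2.14 FPKM, and Nle1 at 1.38, 1.75 and 1.71 FPKM in oil and 2.47, 3.33 and 3.504 FPKM with tamoxifen. None of the 236 genes tested in the 10 pathway lists passed over all genes; without tamoxifen 1, 27 small-subunit and 31 large-subunit factors passed as higher and 1 in each list as lower, where 17.4% of all genes passed as higher and 14.5% as lower.

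RNA polymerase I factors outside the members had a median of 0.11 log2 units, with 15 of 18 above 0 (53.7% of all genes). All tamoxifen libraries lay above all oil libraries in 3 of the 18, close to the 16.2% of all genes. Polr2k, a small subunit shared by the nuclear polymerases, was at 14.6 ± 1.18 and 19.0 ± 2.28 FPKM, and Taf1d at 6.04 ± 0.536 and 7.58 ± 0.679 FPKM (SD, n = 3). RNA polymerase III factors, which serve tRNA and the smallest rRNA, had a median of 0.07, with 14 of 20 above 0. All tamoxifen libraries lay above all oil libraries in 7 of the 20 (35%), against 16.2% of all genes. In 1 (5%) they lay below, against 13.8% of all genes. Polr3d was at 5.56 ± 0.477 and 7.44 ± 0.868 FPKM, and Maf1, the repressor of this polymerase, was lower at 31.3 ± 2.50 and 25.5 ± 2.54 FPKM. Proteins of snoRNP assembly had a median of 0.19 with 10 of 12 above 0, where Snu13 was at 20.1 ± 1.17 and 27.4 ± 4.22 FPKM and Znhit3 at 1.37 ± 0.0292 and 1.90 ± 0.219 FPKM. Genes of the nuclear exosome, which trims pre-rRNA ends, were listed with the separate nuclease Xrn2, and 14 of 14 were above 0. Their median was 0.18. Exosc3 was at 11.4 ± 0.813 and 16.0 ± 2.57 FPKM and Xrn2 at 31.1 ± 1.02 and 36.2 ± 0.581 FPKM. In 2 of the 12 snoRNP assembly genes and 4 of the 14 exosome genes all tamoxifen libraries lay above all oil libraries. In 1 of the 12 and 0 of the 14 they lay below.

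Known Myc targets outside the nucleolus had a median of 0.37 log2 units, and 27 of 27 tested were above 0 (53.7% of all genes). The import receptor Tomm70a was at 16.1 ± 0.799 and 22.2 ± 2.74 FPKM, and Ccnd1 (cyclin D1), which drives entry into the cell cycle, at 12.8 ± 2.87 and 25.7 ± 7.49 FPKM (SD, n = 3). All tamoxifen libraries lay above all oil libraries in 9 of the 27, against 16.2% of all genes. Without tamoxifen 1 the fit called 22 higher and 0 lower, where it called 17.4% of all genes higher and 14.5% lower.

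**Figure D4:**
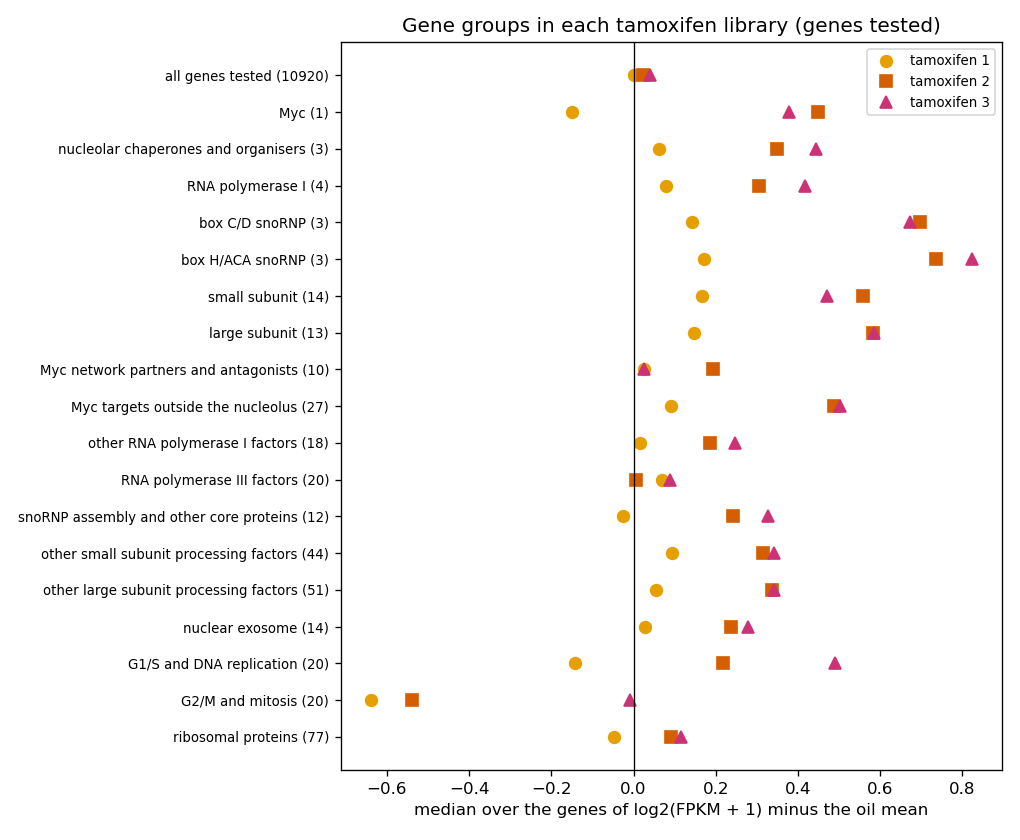
Median over the tested genes of each group of log2(FPKM + 1) minus the oil mean (x axis, log2 units) in each tamoxifen library, with the number of genes in brackets. The role groups of the members lie right of 0 in tamoxifen 2 and 3, all genes and ribosomal proteins lie near 0, and genes of mitosis lie left of 0 in tamoxifen 1 and 2.

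Genes of proliferation had other patterns. Of 20 genes of G1/S and DNA replication 16 had a fold change above 0, and the median gene differed from its oil mean by -0.14, 0.22 and 0.49 log2 units in tamoxifen 1, 2 and 3. Cdc6, a replication licensing factor, was at 3.01 ± 0.207 and 4.35 ± 0.862 FPKM (SD, n = 3), and Tk1 was lower, at 8.96, 8.62 and 10.6 FPKM in oil and 6.28, 5.49 and 7.84 FPKM with tamoxifen. Of 20 genes of G2/M and mitosis 20 had a fold change below 0, and their median gene was at -0.64, -0.54 and -0.01 log2 units in tamoxifen 1, 2 and 3. Ccnb2 (cyclin B2) was at 39.2 ± 0.924 and 27.1 ± 3.85 FPKM and Nusap1 at 7.83 ± 0.893 and 4.74 ± 1.52 FPKM. The median mitosis gene was low in tamoxifen 1, where the members stood nearest to oil, and in tamoxifen 2, where they were high. In tamoxifen 3, where the members were also high, it stood near its oil mean. A link to the members' values was not tested.

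Some lists of cell type markers differed between the groups, not always in every gene, and their part in the members' values was not tested. Of 9 markers of Ly6C-high monocytes 9 lay higher in every tamoxifen than in every oil library, against 16.2% of all genes. Their summed level was 314 to 422 FPKM in oil and 826, 2935 and 1469 FPKM in tamoxifen 1, 2 and 3. Chil3 ran from 139.5 to 252 FPKM in oil and from 489 to 2456 FPKM with tamoxifen, and Ly6c2 from 21.4 to 51.8 and from 83.8 to 152 FPKM. Neutrophil markers, of which 8 of 13 were tested, summed to 51.5 to 55.4 FPKM in oil and to 56.4, 369.5 and 114 FPKM in tamoxifen 1, 2 and 3, with S100a8 at 4.12, 154 and 40.4 FPKM there and S100a9 at 48.7 ± 62.9 FPKM (SD, n = 3) against 1.14 ± 0.817 FPKM in oil. Of the 8 tested 5 had a fold change above 0 and 3 below. None of the neutrophil markers was at 0 in all libraries.

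The 8 macrophage genes in the table summed to 11143 to 12864 FPKM in oil and 8982 to 10042 FPKM with tamoxifen. The sum was led by Lyz2 at 9343 ± 824 and 7071 ± 314 FPKM. Cd68 was at 1193 ± 29.8 and 1032 ± 224 FPKM (SD, n = 3). Of these 8 genes 2 had a fold change above 0 and 6 below, where 53.7% of all genes were above 0. Dendritic cell markers summed to 31.0 to 34.8 and 16.1 to 28.7 FPKM, with Irf8 at 23.9 ± 1.05 and 16.7 ± 6.99 FPKM and Cd209a at 4.50 ± 1.46 and 1.33 ± 0.724 FPKM. B cell markers summed to 29.6 to 36.0 and 9.24 to 24.0 FPKM, with Ighm at 27.0 ± 2.86 and 9.96 ± 7.79 FPKM and Cd79b at 4.17 ± 0.433 and 2.94 ± 0.846 FPKM. Of the 3 tested B cell markers 1 had a fold change above 0 and 2 below. T and NK cell markers summed to 5.51 to 7.32 and 2.94 to 3.15 FPKM, with Cd4 at 4.22 ± 0.986 and 0.769 ± 0.748 FPKM and Cd2 at 1.66 ± 0.177 and 2.04 ± 0.867 FPKM. Ncr1, an NK cell receptor, was the only marker on these lists at 0 in all 6 libraries.

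Markers of muscle and satellite cells summed to 6.63 to 12.3 FPKM in oil and 2.97 to 4.94 FPKM with tamoxifen, with Acta1 at 2.94 ± 1.37 and 1.34 ± 0.289 FPKM and Myog at 2.51 ± 0.905 and 0.587 ± 0.444 FPKM (SD, n = 3). Stromal markers summed to 23.5 to 26.4 and 15.9 to 38.1 FPKM, with Col3a1 at 9.02 ± 0.257 and 10.8 ± 4.39 FPKM and Col1a1 at 8.66 ± 0.541 and 8.29 ± 2.97 FPKM. Endothelial markers summed to 6.46 to 7.88 and 6.79 to 8.08 FPKM, with Kdr at 2.26 ± 0.774 and 3.01 ± 0.902 FPKM and Pecam1 at 2.15 ± 0.00629 and 1.90 ± 0.271 FPKM. Genes of RNA quality and handling were lower in 8 of 10, with a median log2 fold change of -0.27 and the median gene at -0.18, -0.26 and -0.44 log2 units in tamoxifen 1, 2 and 3. At an unadjusted p under 0.05 there were 3 lower and 0 higher (11.7% and 13.2% of all genes), 0 passed over all genes, and without tamoxifen 1 the fit called 4 lower and 0 higher (14.5% and 17.4% of all genes). Among the lower ones were the immediate early genes Fos, Jun, Egr1 and Atf3 and the heat shock genes Hspa1a and Hspa1b, and the part of this list in the members' values was not tested. Its summed level, 6989 to 7788 FPKM in oil and 6284 to 7516 FPKM with tamoxifen, is carried by mitochondrial transcripts, with mt-Co1 at 3313 ± 252 and 3337 ± 422 FPKM and mt-Nd1 at 1386 ± 80.2 and 1399 ± 226 FPKM.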

How the data were processed

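The authors deposited FPKM per gene and library as 1 table, a unit known from the table's name and values. The submitters' processing notes name GRCm38.p6. The aligner, counter, annotation and strand setting were not given in the sources used here. Of 54183 lines, 382 without a gene name and 27 with a date in its place were left out. Depth was recovered by multiplying low FPKM values by exon length (GENCODE M21, same build): between 95.0% and 95.3% of values up to 1000 reads were whole within 0.02 reads.

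Tamoxifen was compared with oil (3 libraries each) by limma-trend on log2(FPKM + 1), without covariates or further scaling, for genes whose mean reached 1 FPKM, with two-sided p-values, Benjamini-Hochberg adjustment over all genes tested and a threshold of 0.05. This pseudocount understates the change of low genes. Myc and Manf also had an exact permutation test over 20 splits. The members, roles and lists were chosen with earlier results of these data known. By rule, the 3 members with the smallest p and the most abundant one of each role group are given in full, with 2 genes from each pathway list (smallest p) and each marker list (most abundant); genes named outside it are given by fold change only or marked as such. Genes with near-identical copies or pseudogenes, such as Npm1, are uncertain in level. Alternatives were other pseudocounts, filters, scalings, priors, library weights, a replicate block, limma-voom on recovered reads and each library left out. The fit was tested on simulated data. R 4.3.3, limma 3.58.1 and Python 3.11 with pandas 2.3.3 and NumPy 2.4.6 were used.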

Additional observations from a re-analysis of the deposited data

How the results depend on the processing

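All members tested had a fold change above 0 in each alternative run (37 members in limma-voom and 34 at a minimum of 5 FPKM). The median over the members lay between 0.32 and 0.52 log2 units under other pseudocounts, filters, scalings, priors, weights and limma-voom, and between 0.33 and 0.57 when 1 library was left out. The calls depended on how tamoxifen 1 was treated. With library weights, where tamoxifen 1 had a weight of 0.199 and tamoxifen 3 of 3.77, 4741 genes (24.8% of all genes as higher), 41 members (all higher) and 146 genes of the pathway lists passed; Myc reached 0.41 and passed (limma-trend adjusted p = 0.0323), and Manf turned to 0.23. Leaving out 1 library gave 0 to 3484 genes, 0 to 39 members higher, 0 to 120 genes of the pathway lists, 25 to 41 members without overlap and 16 to 41 members at an unadjusted p under 0.05. The 16 came without oil 1, and 18 without tamoxifen 2 or without tamoxifen 3. Manf ran from -0.24 to 0.35, being above 0 without oil 2 (0.02) and without tamoxifen 1 (0.35). Without a filter 1 gene passed and with a minimum of 5 FPKM 5 genes, but 0 members. The replicate block gave 33 genes and 0 members. Deviations of same-numbered libraries correlated by 0.261, 0.0884 and 0.00397 for replicates 1, 2 and 3. The closest partner had the same number for replicates 1 and 2, and for replicate 3 it was number 2. Whether the numbers pair the libraries cannot be settled from these values. The counts of members without overlap and at an unadjusted p, and of those above 0, were chosen after seeing the data. The causes were not tested.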

Other observations

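Genes of the cytosolic ribosomal proteins, the protein components of the ribosome, were taken by gene name after the data were seen. All 77 such genes of the table were tested, and 57 had a fold change above 0 (74.0%, against 53.7% of all genes). Their median was 0.05 log2 units, against 0.41 for the 41 members and 0.02 for all genes. In tamoxifen 1, 2 and 3 the median gene differed from its oil mean by -0.05, 0.09 and 0.12 log2 units. In 6 of them (7.79%) every tamoxifen library lay above every oil library and in 1 (1.30%) below, against 16.2% and 13.8% of all genes. At an unadjusted p under 0.05 there were 3 higher, Rpl7a, Rps6 and Rpl18, and 0 lower, against 13.2% and 11.7% of all genes. Limma-trend called 0 of them over all genes. Without tamoxifen 1 it called 14 of the 77 higher and 0 lower, where 17.4% of all genes passed as higher and 14.5% as lower. Their median was then 0.10 log2 units. Tamoxifen 2 and tamoxifen 3 both lay above the other 4 libraries in 38 of the 77 (49.4%), against 30.2% of all genes. Rps6, a protein of the small subunit, averaged 372 ± 14.7 FPKM in oil and 448 ± 50.5 FPKM after tamoxifen (SD, n = 3). Ribosomal protein genes have many processed pseudogenes, so their levels are uncertain.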
